A study of Mus musculus with 16 samples.

Results

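Hox genes encode homeodomain transcription factors and lie in 4 clusters of the mouse genome. The members described here are the genes of the deposited count table whose symbol is Hox, a cluster letter from a to d and a number, 39 of 22869 genes. The Hoxa cluster holds 11 of them, Hoxb 10, Hoxc 9 and Hoxd 9. They were followed through RNA, H3K27me3, H3K4me1, H3K27ac and CpG methylation in pancreatic β cells of old and young mice.

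Hox genes give cells their position along the head-to-tail axis of the embryo, and their order on the chromosome matches the order of the body regions in which they act. Where a cluster is silent, Polycomb repressive complex 2 marks it with trimethylation of histone H3 at lysine 27 (H3K27me3). The marked CpG-rich DNA is usually kept free of methylation in that state. Hox proteins bind DNA together with cofactors of the Pbx and Meis families, and Pdx1, the defining factor of the pancreas, comes from the related ParaHox cluster.

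All groups were β cells sorted by flow cytometry from mouse pancreas, without a further treatment or deletion named in the labels. The old RNA libraries 1, 2 and 3 came from mice of 15, 16 and 17 months, and the 2 young RNA libraries from mice of 4 to 6 weeks, all of strain MIP-GFP/Bl6, in which the mouse insulin promoter drives a green fluorescent protein. The chromatin and bisulfite libraries are labelled C57Bl6, with 4 to 6 weeks for young and 16 to 18 months for old mice, and there was 1 library per age for H3K27me3, H3K4me1 and methylation and 1 young library for H3K27ac. Samples were pools of several mice. The design text gives 18 to 22 months for the old bisulfite pool and names 2 old H3K27me3 replicas, so the age of that pool and whether the old H3K27me3 list joins replicas are not settled. Comparisons of chromatin and methylation are therefore between single libraries and carry no replicate check, and the p-values below that come from reads compare these libraries, not the ages.

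Sequencing of RNA gave 23559906 to 33562820 counts per old library, and 6377620 and 12892122 per young library. The young pair are called shallower and deeper after these totals. The 8 β-cell markers, led by the insulin genes, summed to 324623 to 386119 counts per 1000000 counts (CPM) in old and to 329699 and 274159 in young libraries. Of these 8, Iapp and Slc2a2 (2 of 8) were higher in old libraries in edgeR's quasi-likelihood test, against 3.17% of all tested genes. DESeq2 called 3 of 8 higher, Ucn3 being the third, against 6.98% of all genes it tested. Markers of other pancreatic cells moved with the groups. The 12 stellate and fibroblast markers summed to 9.68 to 12.8 CPM in the old libraries, 403 in the shallower young library and 4377 in the deeper one, and 12 of 12 were lower in old libraries in edgeR's quasi-likelihood test, against 7.93% of all tested genes. Of the 8 endothelial markers 8 fell (42.1 to 72.0 CPM in old, 471 and 854 in young), as did 6 of 6 acinar, 3 of 3 delta and PP, 4 of 5 duct, 2 of 8 tested macrophage and lymphocyte, 1 of 5 alpha and 1 of 2 tested gut markers, and 0 of 4 tested neural crest and glia markers (3 at an unadjusted p under 0.05, and 4 markers of that list by DESeq2). Bisulfite sequencing covered 18795223 CpGs in young at a median of 16 calls and 19569012 in old at a median of 18.

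The upstream DNA of the Hox genes is shown first, since its CpG content is the substrate of the methylation measurements below. RefSeq promoter sequence of build GRCm38.p6 matched 22 of the 39 genes, 20 of them with a single start. In 250 bases upstream of the start these held a median of 12.5 CG dinucleotides (a C followed by a G, which reads the same on both strands), against 6 over all 32851 promoters of that table. Those printed, 4 in all, were chosen after their values were seen: the pair with the most CG and the pair with the highest methylation in old cells. Capitals mark each CG, and each sequence runs 5′ to 3′ toward the gene.
Hoxa13, minus strand, chr6:52260881-52261130: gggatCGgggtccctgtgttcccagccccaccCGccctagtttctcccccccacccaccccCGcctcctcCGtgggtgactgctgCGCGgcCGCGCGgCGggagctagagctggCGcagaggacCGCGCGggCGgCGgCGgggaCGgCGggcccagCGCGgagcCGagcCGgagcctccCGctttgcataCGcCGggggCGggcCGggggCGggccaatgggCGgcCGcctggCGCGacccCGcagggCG
Hoxd13, plus strand, chr2:74667975-74668224: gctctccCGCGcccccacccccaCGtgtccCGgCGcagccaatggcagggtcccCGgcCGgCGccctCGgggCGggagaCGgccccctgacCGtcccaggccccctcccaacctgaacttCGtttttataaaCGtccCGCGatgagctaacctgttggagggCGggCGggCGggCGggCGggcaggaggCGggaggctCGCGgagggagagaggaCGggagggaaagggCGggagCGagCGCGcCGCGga
Hoxd4, plus strand, chr2:74721728-74721977: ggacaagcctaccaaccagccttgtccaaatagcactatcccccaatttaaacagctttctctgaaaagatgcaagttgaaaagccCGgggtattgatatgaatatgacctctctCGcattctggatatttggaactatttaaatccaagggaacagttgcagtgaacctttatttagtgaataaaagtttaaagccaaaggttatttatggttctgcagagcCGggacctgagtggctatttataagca
Hoxa7, minus strand, chr6:52218574-52218823: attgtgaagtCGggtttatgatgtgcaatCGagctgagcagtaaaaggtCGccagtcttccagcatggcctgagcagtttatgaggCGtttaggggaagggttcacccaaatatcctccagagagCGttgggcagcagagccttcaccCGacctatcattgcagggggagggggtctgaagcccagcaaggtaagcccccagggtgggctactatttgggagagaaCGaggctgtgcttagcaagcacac
Hoxa13 and Hoxd13, which shape the digits and the genital tract, had 35 and 31 CG. Within 1 kb of their starts 4.89% and 6.21% of calls were methylated in young cells, and 5.84% and 10.8% in old cells. Hoxd4 and Hoxa7, which pattern the neck and the trunk, had 3 and 7 CG, and were methylated at 19.2% and 23.1% in young and at 17.2% and 27.5% in old cells. Over the 20 genes with a single start, the median methylation in young cells was 14.0% for the 8 with fewer than 12 CG, 12.9% for the 7 with 12 to 20, and 4.89% for the 5 with more than 20. In old cells these medians were 11.2%, 9.48% and 8.19%.

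All coordinates from here on are those of the deposited files, in build mm9, and are not to be set beside the GRCm38.p6 positions above. The Hoxa cluster ran from the outermost gene end to the outermost gene end over chr6:52105366-52210874, Hoxb over chr11:96055675-96229567, Hoxc over chr15:102751562-102867283 and Hoxd over chr2:74506367-74603199. H3K27me3 covered all 4 clusters in β cells of both ages. In young cells a single region spanned each cluster whole, and all 39 Hox gene starts lay inside one, against 25.4% of all 22512 gene starts. In old cells all 39 starts again lay inside a region, against 39.3% of all starts. The 67 other homeobox genes of a list kept beside the Hox genes, developmental regulators outside the clusters, had 66 starts inside regions in each age.

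The regions over the clusters were among the widest deposited. The young Hoxc region measured 402 kb and was the fourth widest of 31187. The young Hoxa region measured 306 kb (width rank 9), the Hoxb region 285 kb (rank 12) and the Hoxd region 214 kb (rank 34). By the authors' score, with no stated unit and used only to rank regions within a list, these 4 regions ranked 197, 73, 44 and 63.

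In old cells the Hoxc region was 404 kb wide (rank 22 of 38007), the Hoxa region 198 kb (rank 146) and the Hoxd region 186 kb (rank 172). Ranks from lists of unequal length show no change, and the old list covered 25.1% of the genome span against 17.5% for the young list. On the Hoxa13 side of Hoxa the young region reached 87126 bp and the old region 70126 bp beyond the cluster. Further regions followed in old cells, so that the 100 kb on that side were covered to 87.1% in young and 85.1% in old cells. The Hoxd region reached 61801 bp past Hoxd1 in young and 32801 bp in old cells, and all regions together covered 61.8% and 46.8% of the 100 kb there, while its edges on the Hoxd13 side lay 1 kb apart. Both edges of the Hoxc region and both outer edges of the Hoxb regions lay within 3 kb of each other in the 2 ages.

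Hoxb was the single cluster not covered whole. In old cells 3 regions of 79, 14 and 184 kb covered 94.2% of it, with gaps of 3 kb (chr11:96083001-96086000) and 7 kb (chr11:96100001-96107000). Both gaps lay in the long stretch between Hoxb13, the most tailward gene of the cluster, and Hoxb9, and held no Hox gene start. That stretch was also more methylated than the rest of the Hox DNA, at 33.1% of calls in young and 32.7% in old cells.

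**Figure D1:**
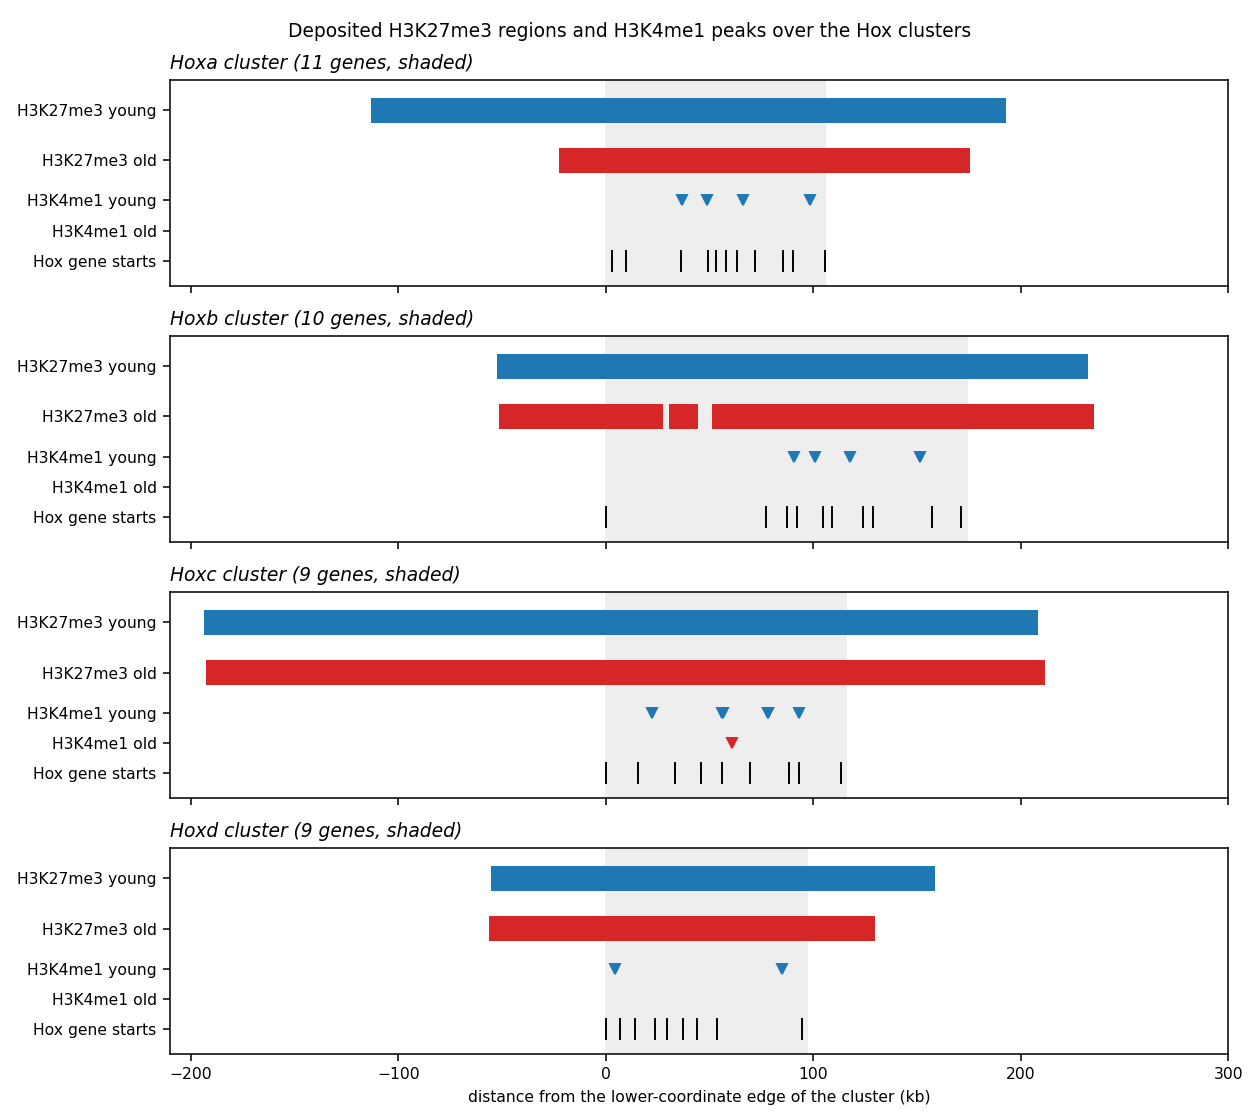
Map of the 4 Hox clusters, with the distance in kb from the lower-coordinate edge of the cluster on the horizontal axis. Bars are deposited H3K27me3 regions, triangles H3K4me1 peak centres inside the cluster and black ticks Hox gene starts, with young in blue and old in red. The clusters are covered whole except for 2 gaps in Hoxb in old cells, and young cells have 16 H3K4me1 peaks against 1 in old cells.

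H3K4me1, a mark found at enhancers, was sparse at the Hox genes. A peak lay within 1 kb of 5 of 39 Hox starts in young cells (Hoxc13, Hoxc9, Hoxc5, Hoxa4 and Hoxa5), against 45.6% of all gene starts. In old cells a peak lay near 1 of 39, Hoxd13, against 30.0% of all starts. That peak was just outside the cluster. The other homeobox genes had a peak at 40 of 67 starts in young and at 21 of 67 in old cells.

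Inside the clusters lay 16 young peak centres and 1 old one. Hoxa held 4 young peaks, Hoxb 4, Hoxc 6 and Hoxd 2, which is 3.79, 2.30, 5.18 and 2.07 per 100 kb, against 2.99 over the genome. The single old peak lay in Hoxc9 (chr15:102812088-102812208), 0.864 per 100 kb of Hoxc against 1.40 over the genome. It overlapped no young peak. The old list held 36207 peaks against 77291 in the young list, and tags in peaks made up 6.00% and 12.45% of all tags per the file headers. The part of these list-wide differences in the cluster counts was not tested. The 36207 best-scored young peaks included 4 of the cluster peaks, against 1 in the old list.

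The young peaks of the clusters mostly had low scores in the authors' list. The best one lay 2904 bp upstream of Hoxa7 (chr6:52171413-52171539, rank 944 of 77291). The next, at rank 27498, were the peak 717 bp into Hoxc9, the peak 169 bp into Hoxc5, a vertebra-patterning gene, and the peak 2116 bp upstream of Hoxd12. Of the 16 peaks 7 lay inside a Hox gene.

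Methylation within 500 bases of the peak centre differed by less than 5 percentage points between the libraries at 14 of the 16 young peaks. The 2 others were in Hoxb and were lower in old cells. At the peak 4197 bp upstream of Hoxb6 (chr11:96156225-96156351) the level was 29.6% in young and 8.74% in old cells. At the peak inside Hoxb3, 5802 bp upstream of Hoxb2 (chr11:96207081-96207207), it was 25.1% and 9.41%. Neither site had an H3K4me1 peak in old cells, but none of the 16 young peaks overlapped an old one.

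H3K27ac, a mark of active promoters and enhancers, was mapped in young cells only. None of its 15754 regions touched a Hox cluster. None of the 39 Hox starts had a region within 1 kb, against 34.4% of all gene starts, and none of the 67 other homeobox starts had one. A region that the caller did not pass is not listed, so the absence is of called regions.

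Hox DNA was weakly methylated in both ages. Pooled over all calls, 13.5% of calls in the 4 clusters were methylated in young cells (95% exact binomial interval 13.4 to 13.6%, which covers counting error only) and 13.8% in old cells (13.7 to 13.9%). The 100 kb on each side of the clusters stood at 46.5% in young and 48.3% in old cells by the same measure. As a mean in which each CpG counts once, the clusters were at 20.8% in young and 18.1% in old cells, the flanks at 58.3% and 57.1%, and the genome at 75.9% and 75.7%. The old-minus-young difference thus turned with the weighting in both the clusters and the flanks. The clusters held 23.8 CpGs per kb, the genome 7.28.

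By cluster, the pooled level was 13% in young and 12.8% in old cells for Hoxa, and 19.5% and 18.7% for Hoxb. It was 12.4% and 12.7% for Hoxc, and 9.53% and 10.8% for Hoxd. Deeply covered CpGs weigh most in these pooled values. When each CpG counted once, all 4 clusters were lower in old cells: 18.4% and 16.2% for Hoxa, 27.9% and 23.8% for Hoxb, 18.1% and 16.3% for Hoxc, and 16.3% and 14.5% for Hoxd. The direction of the Hoxc and Hoxd differences thus turned with the weighting. Hox gene bodies were less methylated than the DNA between them in each cluster and age, for example 12.7% against 28.6% in young Hoxb.

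Single CpGs were compared where both libraries had at least 10 calls. Of 9501 such CpGs in the clusters, 51.1% were methylated below 10% in young and 50.1% in old cells, against 11.1% over the genome in each age. Old cells were higher by 20 percentage points or more at 7.80% of them, against 13.4% of all CpGs, and lower by as much at 12.9%, against 12.5%.

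The median level within 1 kb of the start was 11.2% in young and 9.48% in old cells over the Hox genes, and 12.3% and 12.1% over all gene starts. Below 10% methylation lay 46.2% of Hox starts in young and 59.0% in old cells, against 43.7% and 44.1% of all starts. The upper range was narrower for the Hox genes than for all starts: within 1 kb of the start 35 of 39 Hox genes in young and 37 in old cells were below 20% methylation, a level reached by 59.3% and 59.4% of all starts. Of starts inside H3K27me3 regions of both ages, 49.6% and 49.0% were below it. The other homeobox genes shared this trait, with 64 of 67 starts in young (95.5%) and 63 in old cells (94.0%) below 20%. The windows of neighbouring Hox starts did not overlap.

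A start was called where Fisher's exact test on the pooled calls gave a Benjamini-Hochberg adjusted p under 0.05 over all 21511 starts and the levels differed by at least 10 percentage points. By this rule 0 of 39 Hox starts were higher in old cells, against 3.74% of all starts, and 1 of 39 was lower, against 4.45%. The median difference was -0.10 points over the Hox starts and 0.14 over all starts. The adjusted p alone was under 0.05 at 28 of 39 Hox starts, against 55.3% of all starts, and 30 of 39 differed by less than 5 points.

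The called start was that of Hoxb3, a gene of hindbrain and neck patterning. Its level was 36.9% in young (31.5 to 42.5%, 309 calls) and 15.7% in old cells (12.2 to 19.8%, 369 calls) over 25 CpGs, a difference of -21.2 points with an adjusted p of 2.34e-09. These intervals do not overlap. It had the highest level of all Hox starts in young cells.

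The next largest differences toward lower levels stayed under 10 points. Hoxb8, a trunk gene, was at 22.1% in young and 13.2% in old cells, a difference of -8.98 points. Hoxd3 was at 13.2% and 6.36%, a difference of -6.83 points. Hoxb1, needed for the facial nerve territory of the hindbrain, was at 20.8% and 14.6% (-6.21 points), and Hoxa9, a blood stem cell regulator, at 16.1% and 11.0% (-5.18 points).

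The largest differences toward higher levels also stayed under 10 points. Hoxb2 was at 13.3% in young and 22.8% in old cells, 9.50 points higher. Hoxc6, a thoracic gene, was at 8.60% and 15.7%, 7.07 points higher, and Hoxc4 was at 6.04% and 11.5%, 5.48 points higher. Hoxa6 was at 4.84% and 9.51% (4.66 points higher), and Hoxd13 at 6.21% and 10.8% (4.60 points higher). The remaining starts lay between 3.13% (Hoxd8) and 23.1% (Hoxa7) in young cells, and between 5.84% (Hoxa13) and 27.5% (Hoxa7) in old cells.

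**Figure D2:**
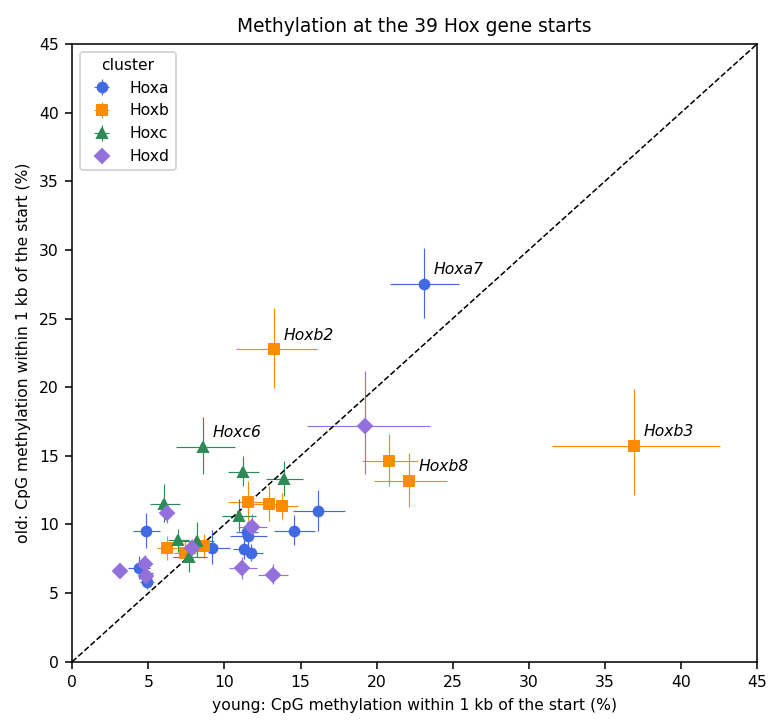
Methylation of CpGs within 1 kb of each of the 39 Hox gene starts, with the young library on the horizontal and the old library on the vertical axis, both in percent of calls. Markers give the cluster, bars are 95% exact binomial intervals and the dashed line marks equal levels. Hoxb3 lies far below the line at 36.9% and 15.7%, and Hoxb2 above it at 13.3% and 22.8%.

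The differences that passed 10 points lay mainly away from the starts. The clusters were divided into 245 tiles of 2 kb, of which 39 (15.9%) were lower by at least 10 points in old cells and 5 (2.04%) were higher. Over the genome 10.2% of tiles were lower and 10.3% higher. Hoxa had 6 lower and 1 higher tiles, Hoxb 17 and 3, Hoxc 10 and 1, and Hoxd 6 and 0. No test was applied to tiles, which hold few CpGs and come from 1 library per age.

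Tiles of intermediate methylation held most of the lower ones. Of 71 cluster tiles with a mean of both ages from 20 to 60%, 26 (36.6%) were lower and 2 (2.82%) higher, with a median difference of -6.13 points. Among all genome tiles in that band 20% were lower and 16.7% higher, and among those in H3K27me3 regions of both ages 15.7% were lower and 13.1% higher. Of the 147 cluster tiles below 20%, 8 were lower and 1 was higher, with a median difference of -0.63 points. By position, 4 of 74 tiles less than 2 kb from a Hox start were lower, 17 of 74 between 2 and 5 kb, and 18 of 97 farther away. These tiles held a median of 64, 30 and 29 CpGs, and no genome share by position is given here.

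The tile with the largest difference lay 5585 bp past the Hoxa5 start, within Hoxa3 (chr6:52148001-52150000), at 60.9% in young and 22.0% in old cells over 7 CpGs. In Hoxd a tile 2036 bp upstream of the Hoxd1 start (chr2:74598001-74600000) was at 58.2% and 30.0%. In Hoxc a tile of the Hoxc8 gene (chr15:102824001-102826000) was at 42.1% and 16.0%. These 3 tiles, named after their values were seen, rest on 82 to 280 calls per library. Among the 5 higher tiles, the one in Hoxa10 (chr6:52184001-52186000) had the most CpGs, 131, and was at 5.29% in young and 15.6% in old cells.

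**Figure D3:**
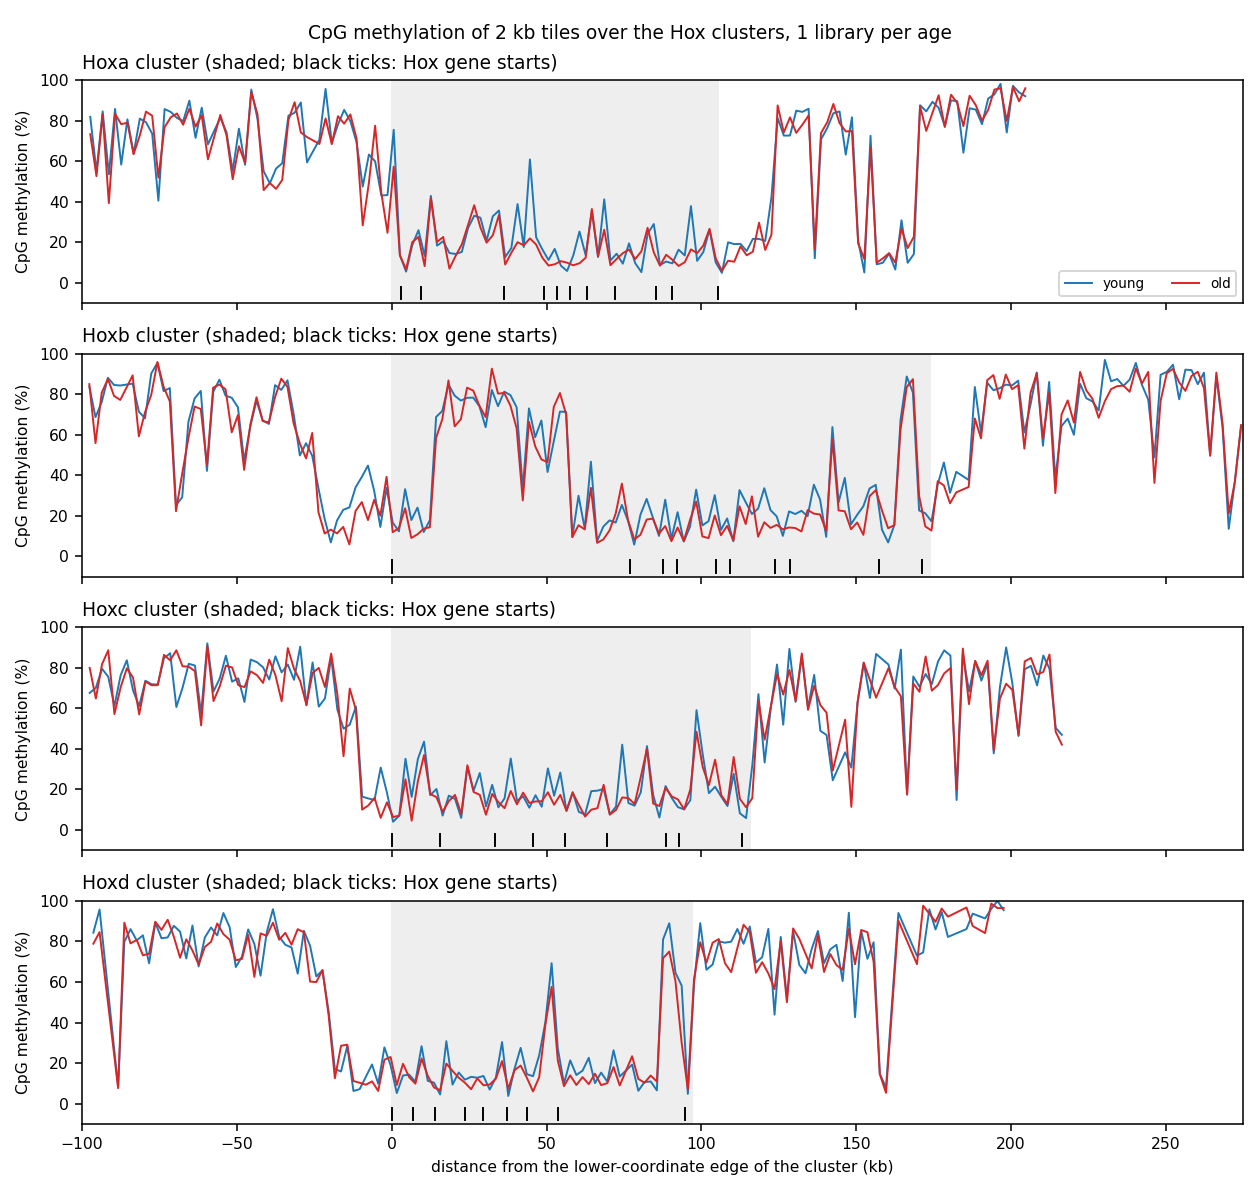
CpG methylation, in percent of calls, of 2 kb tiles along each Hox cluster (shaded) and its flanks, with the distance in kb from the lower-coordinate edge on the horizontal axis, young in blue, old in red, and black ticks at Hox gene starts. Methylation drops from the flanks into the clusters in both ages, and the 39 cluster tiles that are lower by at least 10 points in old cells show as blue peaks above the red line.

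Hox RNA was scarce in both groups and lower in old libraries in sum, yet no single Hox gene passed the test. All Hox genes together had 62, 235 and 18 counts in old libraries 1, 2 and 3, and 371 (shallower) and 762 (deeper) in the young ones. That is 2.32, 7.00 and 0.764 CPM in old and 58.2 and 59.1 CPM in young, so the groups did not overlap. Of all tested genes, taken singly, 28.1% were likewise lower in every old library. Pooled over the libraries of a group, the Hox level was 3.76 CPM in old and 58.8 CPM in young, a ratio of 15.6. In such bulk samples, fewer cells that express a gene and less RNA per cell cannot be told apart.

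Markers of other cells moved the same way. The summed Hox level had a ratio of 1.02 between the young libraries, deeper over shallower. For markers of other cells this ratio was 0.805 for duct, 1.40 for macrophages and lymphocytes, 1.53 for acinar, 1.81 for endothelial, 2.93 for delta and PP, 10.9 for stellate and fibroblast and 16.0 for alpha markers, so some lists lay near the Hox ratio and others far from it. Of the 12 stellate and fibroblast markers all had counts in both young libraries, and Lum and Pdgfra were at 0 in some old libraries. Of the old libraries, library 2 held 74.6% of the old Hox counts, and its stellate and fibroblast sum of 10.1 CPM lay between the others. So did its sums for delta and PP, acinar, endothelial, macrophage and lymphocyte, and neural crest and glia markers. It was the highest old library for duct (97.2 CPM against 70.0 and 73.3), alpha (1797 against 898 and 1586) and gut markers (112 against 85.3 and 104). The part of other cells in the Hox result was not tested.

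Which Hox genes had counts differed from library to library. Of 39 Hox genes 13 had no count in any library, 10 had counts in young libraries only, 2 in old only and 14 in both. The share of all genes with counts in a single age only is not given here. A Hox gene with a count was seen in 6, 13 and 3 cases in the old libraries and in 16 (shallower) and 18 (deeper) cases in the young ones. Of all genes, 70.9%, 74.0% and 69.3% had a count in the old libraries, and 82.3% and 73.0% in the young ones. No Hox gene had counts in all 5 libraries, against 13477 of all genes. Of the 22 Hox genes with at least 10 counts, 10 (45.5%) had more than 90% of them in a single library, against 25.6% of the 5475 genes with totals in the same range. Of the 18 with at least 10 young counts, 5 had none in the shallower and 3 none in the deeper young library.

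**Figure D4:**
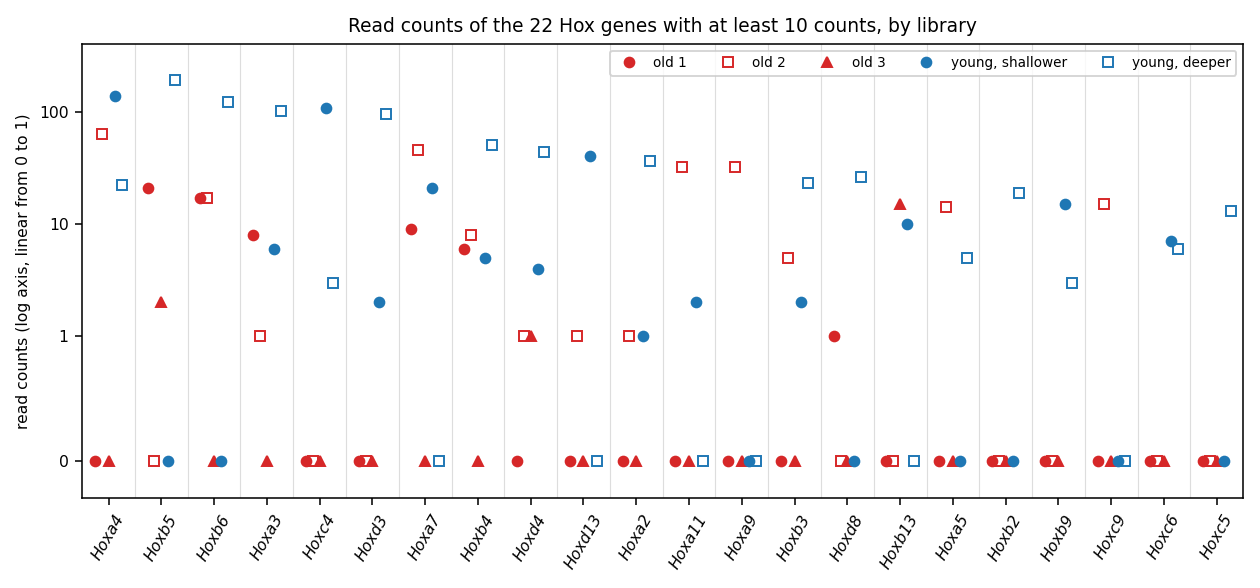
Read counts of the 22 Hox genes with at least 10 counts, on a log axis that is linear from 0 to 1, with 1 point per library (old in red, young in blue). The young libraries differ in the genes they hold: Hoxb5 has 190 counts in the deeper young library and 0 in the shallower, and Hoxc4 has 107 in the shallower and 3 in the deeper.

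The 15 genes with the highest totals are described from the head end of the clusters to the tail end, with counts always for old libraries 1, 2 and 3, then for the shallower and last for the deeper young library. Counts are not scaled to transcript length, so they do not rank the genes by abundance. A count of 0 allows up to 0.0894 to 0.127 CPM in an old library, 0.470 CPM in the shallower young library and 0.233 CPM in the deeper one (3 counts each).

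Hoxa2, the selector gene of the second pharyngeal arch, had 0, 1, 0, 1 and 36 counts. Hoxa3, needed for thymus and parathyroid, had 8, 1, 0, 6 and 101, and Hoxb3 had 0, 5, 0, 2 and 23. Hoxd3, a gene of the neck vertebrae, had 0, 0, 0, 2 and 95. The deeper young library held most counts of each of these 4 genes, and the old libraries at most 8.

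Genes of paralog group 4, which pattern the lower neck, split between the young libraries. Hoxa4 had 0, 63, 0, 138 and 22 counts, and Hoxc4 0, 0, 0, 107 and 3, both highest in the shallower library. Hoxb4, also known for expanding blood stem cells, had 6, 8, 0, 5 and 50, and Hoxd4 0, 1, 1, 4 and 44, both highest in the deeper library. Old and young counts of Hoxa4 overlapped, since old library 2 exceeded the deeper young library.

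Hoxb5, which acts in the nerve cells of the gut, had 21, 0, 2, 0 and 190 counts. Hoxb6, its neighbour, had 17, 17, 0, 0 and 122. Hoxa7 had 9, 45, 0, 21 and 0, and Hoxd8 had 1, 0, 0, 0 and 26. Each of these 4 trunk genes was at 0 in 1 young library, so the groups overlapped.

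The tailward genes Hoxa9 and Hoxa11, the latter a gene of the forearm and the uterus, were carried by old library 2. Hoxa9 had 0, 32, 0, 0 and 0 counts and Hoxa11 0, 32, 0, 2 and 0. Hoxd13 had 0, 1, 0, 40 and 0. Outside these 15 genes Hoxc9 (15) and Hoxa5 (14) also had counts in old library 2, and Hoxb13, a gene of the tail and the prostate, had 15 in old library 3 and 10 in the shallower young library.

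Summed by paralog group, groups 1 to 4 had 14, 79, 1, 265 and 394 counts, groups 5 to 8 had 48, 76, 2, 30 and 362, and groups 9 to 13 had 0, 80, 15, 76 and 6. In CPM groups 9 to 13 overlapped between old (up to 2.38) and young (from 0.465), and the other groups did not. By cluster, Hoxa had 17, 188, 0, 168 and 165 counts, and Hoxb 44, 30, 17, 34 and 407. Hoxc had 0, 15, 0, 114 and 22, and Hoxd 1, 2, 1, 55 and 168. Scaled to the library size, both young libraries exceeded every old one for each of the 4 clusters, most narrowly for Hoxa (at most 5.6 CPM in old, at least 12.8 in young, a ratio of 2.28). The same ratio of the lowest young to the highest old library was 3.23 for Hoxb, 3.82 for Hoxc and 145 for Hoxd. Among all tested genes, taken singly, 28.1% were lower in every old library than in both young ones. A cluster sum can rest on a single gene: of the 114 Hoxc counts in the shallower library 107 were of Hoxc4.

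The filter on low counts asked for at least 0.424 CPM in at least 2 libraries and for a minimum total count. It passed 8 of the 39 genes. Hoxc6 reached 0.424 CPM in both young libraries but not the minimum total, with 13 counts in all. Of the 8 genes, both young libraries reached 0.424 CPM for Hoxa3, Hoxa4, Hoxb4 and Hoxd4. Hoxa7, Hoxb5, Hoxb6 and Hoxb13 passed with 1 young library and at least 1 old one. Genes chosen by such a filter had to be high in some libraries, so their common direction is given as a description. In edgeR's quasi-likelihood test 0 of 8 were called at an adjusted p of 0.05, against 7.93% of 15544 genes lower and 3.17% higher in old. All 8 fold changes were negative, with a median log2 fold change of -3.90 against -0.05 over all tested genes. The unadjusted p was under 0.05 for 2 of them. Hoxd4 had a log2 fold change of -5.92 (SE 1.79, adjusted p = 0.0682) and Hoxa3 one of -5.13 (SE 1.8, adjusted p = 0.0991). Hoxa7 and Hoxb13 were at -1.41 and -1.60 with adjusted p of 0.709 and 0.713. The values of the groups did not overlap for 3 of the 8 (Hoxa3, Hoxb4 and Hoxd4), against 28.1% of all tested genes that were lower in every old library. These 3 passed the filter through the young libraries alone, with no old library at 0.424 CPM. Their lack of overlap thus followed from how they entered the test and is no support.

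The calls depended on the young libraries and on the tool. DESeq2 called 4 of 13 tested Hox genes lower in old (Hoxa3, Hoxc4, Hoxd3 and Hoxd4), against 17.5% of all genes it tested. Without the shallower young library 5 of 17 were called lower in edgeR's test (Hoxa2, Hoxa3, Hoxb5, Hoxd3 and Hoxd4), against 12.1% of all genes. Without the deeper one 3 others of 13 were called (Hoxa4, Hoxc4 and Hoxd13), against 18.2%. In these last 2 fits the spread came from the old libraries alone and the lone young library was assumed to vary like them. Each called gene had more counts in the young library kept than in the one left out. With a lone young library, a high level in 1 library lets a gene pass the filter. Hoxa2, Hoxa3, Hoxc4, Hoxd3, Hoxd4 and Hoxd13 were at most at 0.300 CPM in old libraries and entered through the young library kept. Their calls, and the shares called in these 2 fits, are thus no support. No Hox gene was called higher in old by DESeq2 or in either fit.

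For genes with no old count a fold can be given only as a bound, set against 3 counts over the old group (0.0358 CPM, lower than the limit of a single library given above). Hoxc4 was at least 159-fold and Hoxd3 at least 141-fold lower in old libraries. Hoxb2 and Hoxb9 were at least 27.5-fold and 26.1-fold lower, Hoxc5 and Hoxc6 at least 18.8-fold, and Hoxd12 at least 13-fold. These bounds rest on 1 young library each except that of Hoxc6, since the other young library had at most 3 counts of the gene and gives no bound on its own. For Hoxc6 the shallower library alone gave at least 30.7-fold and the deeper one at least 13-fold. Hoxd3 and Hoxd4 overlap on the genome, as Hoxa3 does with Hoxa4, Hoxa5 and Hoxa6, and the sources used here do not say whether counting used strand or split shared reads. Counts of these genes are therefore uncertain.

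The partners of Hox proteins, in contrast, all passed the filter on low counts. All 9 listed cofactors were tested, with 0 called in edgeR's test, 2 at an unadjusted p under 0.05, and 2 called higher in old by DESeq2 (Pbx2 and Pbx3), against 6.98% of all genes. Meis2 was at 209, 163 and 190 CPM in old and 155 and 229 in young libraries (log2 fold change 0.12, adjusted p = 0.798). The libraries of the 2 ages overlapped for this gene. Pbx3 missed the threshold at 1.52 (adjusted p = 0.0593). Of the Cdx and ParaHox genes, which include the regulators of the caudal Hox genes, only Pdx1 passed the filter, at 0.88 (adjusted p = 0.0758). Cdx2 had no count in any library.

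Retinoic acid switches on the head-end Hox genes in embryos. Of its 15 listed enzymes, binding proteins and receptors 10 were tested, 2 fell and none rose in edgeR's test, against 7.93% and 3.17% of all tested genes. Aldh1a1, an enzyme that makes retinoic acid, fell by 2.88 on the log2 scale (SE 0.59, edgeR adjusted p = 0.0246), from 17.6 and 26.3 CPM in young libraries to 3.6, 2.47 and 1.99 in old ones. The receptor Rxra fell by 1.38 (SE 0.31, adjusted p = 0.0303). Rara, the other member with a high level, was at 2.98 and 58.6 CPM in young libraries (log2 fold change -1.19, adjusted p = 0.422).

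The Polycomb list, whose products place and read H3K27me3, had 30 of 30 genes tested, of which 1 rose and 2 fell, with a median log2 fold change of -0.0013. These counts are near the 3.17% and 7.93% of all tested genes and say nothing of the list as a whole. Bmi1, a core subunit of Polycomb repressive complex 1, rose by 1.40 (SE 0.33, edgeR adjusted p = 0.0351), from 21.6 and 25.9 CPM in young to 68.3, 48.1 and 52.7 in old libraries. Rybp, another subunit, fell by 1.79 (adjusted p = 0.0417), and Phf19, a partner of Polycomb repressive complex 2, fell by 5.29 (adjusted p = 0.0459), with young levels of 61.0 CPM (shallower) and 2.48 CPM (deeper). The members with the highest levels, Phc1 (log2 fold change -0.78) and Phc3 (-0.04), were not called. The methyltransferase Ezh2 was at -0.52 and its partners Eed and Suz12 at 0.86 and 0.73, none of them called.

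The Trithorax list, whose enzymes oppose Polycomb at Hox genes, had 14 genes tested and 1 called, near the 7.93% of all tested genes called lower. Wbp7, a lysine methyltransferase, fell by 1.12 (SE 0.29, edgeR adjusted p = 0.0481). Mll1 and Mll2, the members with the highest levels, were at -0.69 and -0.88 with adjusted p of 0.0960 and 0.0514. Of the 67 other homeobox genes 15 were tested and 2 fell, against the same 7.93%: Prrx1, a gene of connective tissue, by 7.51 (adjusted p = 0.0130), and Irx1 by 5.34 (adjusted p = 0.0270). Both were highest in the deeper young library, at 44.4 and 37.8 CPM. Lhx1, with a mean of 11.3 CPM in each group, was not called (log2 fold change 0.15). Its libraries were far apart, at 21.6 CPM (shallower) and 0.931 CPM (deeper) in young and at 6.56, 19.9 and 7.43 CPM in old.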

How the data were processed

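RNA was measured in 3 old and 2 young libraries, H3K27me3, H3K4me1 and CpG methylation in 1 library per age, and H3K27ac in 1 young library. Tools listed in the submitters' processing notes, with no step assigned, are STAR, Bowtie 0.12.7, CASAVA 1.8.2, edgeR and HOMER, on build mm9. The authors deposited RNA as read counts per RefSeq transcript, and the transcript with the highest total stood for a gene. A second deposited table is treated as a signal of unknown scale and gave only positions, since 2 of its columns were identical. HOMER called the peaks of H3K4me1 and H3K27ac against an input, per the file headers, and the deposited score ranked peaks within a list. The deposited H3K27me3 lists carry an unlabelled score, used for ranks, and a p-value column, not used. Which caller made them was not given in the sources used here. The deposited bisulfite tables give a methylated fraction and a coverage per CpG, from which methylated calls were recovered.

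Samples were grouped by the age and assay in their labels. Groups of RNA libraries were compared with edgeR 4.0.16 (R 4.3.3; TMM factors, filterByExpr, quasi-likelihood test, two-sided, Benjamini-Hochberg adjustment over all genes tested), with DESeq2 1.42.0 as an alternative. Calls within 1 kb of gene starts (at least 5 CpGs and 50 calls per library) were compared with Fisher's exact test, two-sided, in scipy 1.17.1. Both tests were tested on simulated data. The RNA simulation changed only genes with high expected counts, so it does not cover genes as sparse as most Hox genes. A peak counted as in a cluster where its centre was, and tiles of 2 kb were described without a test. The members and all gene lists were chosen with earlier results of these data known. RNA counts are printed for the 15 Hox genes with the highest totals, methylation for called starts and the 5 largest differences each way, and of each other list up to 4 called genes and the 2 with the highest level; a cofactor gene and a cluster edge that these choices would include are not reported here. The young count columns carry no replicate number and are named by depth. Input libraries were not analysed here.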

Additional observations from a re-analysis of the deposited data

How the results depend on the processing

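No paired analysis was possible because the young RNA columns carry no replicate number. Against 0 Hox genes called lower, 2 were called with no filter on low counts (26 tested) and 4 with DESeq2, and leaving out each library in turn gave 0 to 5. RLE factors, a minimum of 10 counts and the transcript with the lowest total gave 0, and no alternative called a Hox gene higher. Over all genes with no filter on low counts, 1667 of 20886 were called lower. With RLE factors the median log2 fold change was -0.17 over all genes, against -0.05, and -4.03 over the tested Hox genes. Leaving out a library at a time, the log2 fold change ranged from -2.42 to 6.77 for Hoxa7, from -2.63 to 5.49 for Hoxb13, from -5.51 to 5.72 for Hoxb5 and from -4.47 to 6.10 for Hoxb6. The positive values came without the shallower young library for Hoxa7 and Hoxb13 and without the deeper one for the others, each with a count of 0 in the young library kept. In the other lists DESeq2 called 3 of 12 tested retinoic acid, 3 of 30 Polycomb and 4 of 14 Trithorax genes lower. It also called 8 of 25 other homeobox genes and 1 of 2 Cdx and ParaHox genes (Cdx1) lower, against 17.5% of all genes it tested. Higher were 2 of 30 Polycomb and 1 of 25 other homeobox genes, against 6.98%. H3K27me3 cover of Hoxb in old cells was 94.8% with 10 kb added on each side and 96.0% with regions within 5 kb joined. Of the H3K4me1 peaks at or above the median score 4 young and 0 old ones remained in the clusters, and 4 young ones among as many top peaks as the old list holds. The old-minus-young difference in cluster methylation was -2.21 (Hoxa), -4.16 (Hoxb), -1.81 (Hoxc) and -1.83 (Hoxd) points as a mean over CpGs, and -2.14, -3.07, -1.15 and -1.53 points without CpGs of more than 60 calls, against 0.30 for Hoxc and 1.23 for Hoxd when pooled. Hox starts called higher were 1 within 500 bases (Hoxc4), 1 at CpGs with at least 5 calls (Hoxb2) and 3 at a difference of 5 points, and called lower 3, 2 and 6, with Hoxb3 among them each time. Over all starts these settings called 855 of 20138, 760 of 21035 and 2349 of 21511 higher, and 1025, 892 and 2388 lower. Tiles of 1 kb, chosen after seeing the data, gave 20 higher and 92 lower of 433, and CpGs with at least 5 calls 9 higher. The share of all genome tiles under these settings is not given here. The causes of these changes were not tested. Chromatin and methylation rest on 1 library per age, so leaving out a library was not possible there, and low RNA counts limit the Hox genes.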

Other observations

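The nearest neighbours of the clusters were looked at for the same marks. Skap2, an adaptor protein gene beside the Hoxa cluster, had 1406, 1255 and 493 counts in old libraries and 37 and 169 in the shallower and deeper young ones. It rose by 2.09 on the log2 scale (SE 0.54, edgeR adjusted p = 0.0466), and its start lay inside an H3K27me3 region in young cells and in none in old cells. The Skap2 start also had an H3K27ac region within 1 kb in young cells and an H3K4me1 peak within 1 kb in both ages. Mtx2, a mitochondrial protein gene 60670 bp past Hoxd1, also had its start inside a region in young cells only, with 564, 791 and 451 counts in old and 85 and 243 in young libraries (log2 fold change 0.56, adjusted p = 0.406). The starts of Atp5g2 and Mir688, neighbours of the Hoxc cluster, went the other way and lay inside a region in old cells only. Atp5g2 had a log2 fold change of -0.05 (edgeR adjusted p = 0.987), and Mir688 had 0 counts. A relation between the regions and these counts was not tested.

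Evx1 and Evx2, homeobox genes beside Hoxa13 and Hoxd13, lay inside H3K27me3 in both ages, with 0 counts for Evx1 and 1 count for Evx2 over the 5 libraries. Ttll6, 28909 bp outside the Hoxb13 end of Hoxb, lay inside H3K27me3 in both ages and had 437 counts in old library 1 and 1 to 33 in each of the others (log2 fold change 3.09, edgeR adjusted p = 0.281). Hoxa11as, the antisense transcript of Hoxa11, had 14 counts in the shallower young library and 0 elsewhere. The microRNA genes inside the clusters (Mir196b, Mir196a-1, Mir10a, Mir196a-2, Mir615 and Mir10b) all lay inside H3K27me3 in both ages and had 0 counts, although such a count table does not measure mature microRNAs.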
